A study of Mus musculus with 48 samples.

Results

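The PAR bZIP transcription factor genes Dbp, Tef and Hlf and their antagonist Nfil3 were examined in mouse liver over 6 collection times in 2 genotypes. The members were the 4 rows of the deposited count table that carry these gene symbols, among 22354 genes. All 4 passed the filter on low counts, which left 13646 genes. The KO mice carried homozygous floxed Bmal1 alleles and an aP2-driven Cre recombinase, a driver used for fat cells, and the WT mice were their littermate controls, whose own alleles are not stated further. All mice were C57BL/6, given as male and 4 to 6 months old, and were in constant darkness for 36 h before the first collection. They were killed in darkness at 0, 4, 8, 12, 16 or 20 h, counted from the first collection. There were 23 KO and 25 WT libraries, each from 1 mouse, with 4 per group except at 16 h, where the labels gave 3 KO and 5 WT mice while the design text gave 4 of each.

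DBP, TEF and HLF are leucine zipper activators that share a proline- and acidic-rich (PAR) domain and bind D-box elements as dimers. NFIL3, also called E4BP4, binds the same elements and represses. In liver these factors sit between the circadian clock and its output: the clock activator pair CLOCK and BMAL1 drives Dbp through E-boxes, REV-ERB receptors repress Nfil3, and the balance of PAR bZIP protein and NFIL3 sets the daily rhythm of genes for drug, heme and lipid metabolism.

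Liver identity and library quality were checked before the members were read. The sum of 6 hepatocyte markers lay between 14060.5 and 50661.6 CPM (read counts scaled to TMM-adjusted library sizes) in KO and between 19645.5 and 48888.8 CPM in WT, whereas the sum of 6 adipocyte markers lay between 3.68 and 14.6 CPM in KO and between 4.25 and 17.4 CPM in WT, although a label gives the cell type as adipocyte. Arntl, the symbol of Bmal1, had 21 to 493 counts (median 162) in KO and 10 to 537 counts (median 211) in WT, and its mean log2 change of 0.30 ± 0.16 (SE) did not pass (adjusted p = 0.347). Its largest log2 changes at single times were -1.14 ± 0.39 at 4 h (adjusted p = 0.132) and 1.65 ± 0.43 at 12 h (adjusted p = 0.498). The genotype by time interaction of Arntl had an unadjusted p of 0.000529 and an adjusted p of 0.509, all by edgeR's quasi-likelihood test. None of these passed, and liver Arntl RNA therefore gave no check of the genotype labels. Xist had 3029 to 13969 counts in each library and the Y-linked Kdm5d, Uty and Eif2s3y had 1 count each over all libraries, which goes against the stated sex in both genotypes alike. Pancreas markers summed to 189 CPM in KO replicate 2 at 0 h, adrenal markers to 71.0 CPM in WT replicate 3 at 0 h, and lymphocyte markers to 1213 CPM in WT replicate 5 at 16 h. KO replicate 2 at 0 h, WT replicate 3 at 0 h and KO replicate 2 at 16 h are called the 3 unusual libraries here, and member results that moved without them are given with that value. The set came from earlier results of these data. KO replicate 2 at 16 h held 5936 counts of the leptin receptor gene Lepr, against 29 to 847 in the other 47 libraries. Each library was also compared by r of log2 CPM with the mean of the other mice of its group over all genes tested. The 3 least alike were KO replicate 3 at 16 h (0.923), KO replicate 1 at 4 h (0.940) and WT replicate 2 at 16 h (0.942). KO at 16 h had 3 mice, against 4 or 5 in the other groups, so r is not strictly comparable between groups. These 3 least alike libraries and WT replicate 5 at 16 h are not in the set. They were each left out in the refits without 1 library. Totals without albumin lay between 12841969 and 13009797 counts. Member counts per library ran from 19 to 2488 for Dbp, 534 to 6206 for Tef, 607 to 1693 for Hlf and 62 to 987 for Nfil3. The spread between mice was wider than counting error for every pair of replicates, with a chi-square per degree of freedom of at least 15.9. In bulk liver, fewer cells of a type and less RNA per cell cannot be told apart.

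The start-site regions of the members are shown because members that share a daily phase could be compared for shared clock-related letters. They are the 250 bases before each RefSeq start site in GRCm38.p6, 5′ to 3′ on the gene's strand. Capitals mark matches to the E-box CACGTG, the D-box core TTANNTAA, the nuclear receptor half-site AGGTCA or the cyclic AMP response element TGACGTCA, searched on both strands with no overlap between matches. The windows are Dbp at chr7:45704997-45705246 (plus strand), Tef start 1 at chr15:81802423-81802672 (plus strand), Tef start 2 at chr15:81811164-81811413 (plus strand), Hlf at chr11:90390918-90391167 (minus strand) and Nfil3 at chr13:52981040-52981289 (minus strand).
Dbp: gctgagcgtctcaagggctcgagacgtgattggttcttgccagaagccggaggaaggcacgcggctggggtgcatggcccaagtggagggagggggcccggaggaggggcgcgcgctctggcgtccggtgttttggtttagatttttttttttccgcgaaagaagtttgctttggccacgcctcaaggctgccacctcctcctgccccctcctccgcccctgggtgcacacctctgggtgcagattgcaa
Tef start 1: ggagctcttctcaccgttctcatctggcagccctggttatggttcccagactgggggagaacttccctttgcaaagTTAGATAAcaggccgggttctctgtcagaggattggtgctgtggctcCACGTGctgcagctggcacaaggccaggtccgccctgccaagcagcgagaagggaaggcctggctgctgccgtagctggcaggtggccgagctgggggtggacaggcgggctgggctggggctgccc
Tef start 2: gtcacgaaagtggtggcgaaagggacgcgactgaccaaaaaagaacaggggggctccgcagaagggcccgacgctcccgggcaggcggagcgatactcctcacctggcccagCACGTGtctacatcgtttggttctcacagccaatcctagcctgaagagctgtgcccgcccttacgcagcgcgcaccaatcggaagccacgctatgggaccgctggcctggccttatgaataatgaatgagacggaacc
Hlf: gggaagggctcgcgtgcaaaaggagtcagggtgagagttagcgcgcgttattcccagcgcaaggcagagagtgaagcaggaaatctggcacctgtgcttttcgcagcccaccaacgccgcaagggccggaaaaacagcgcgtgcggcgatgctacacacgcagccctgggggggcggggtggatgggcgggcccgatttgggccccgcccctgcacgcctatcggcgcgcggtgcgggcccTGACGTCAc
Nfil3: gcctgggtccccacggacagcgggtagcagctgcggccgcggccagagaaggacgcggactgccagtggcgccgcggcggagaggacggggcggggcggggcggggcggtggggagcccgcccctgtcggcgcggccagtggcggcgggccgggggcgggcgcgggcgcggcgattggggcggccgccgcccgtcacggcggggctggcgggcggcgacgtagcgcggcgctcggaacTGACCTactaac
Both Tef windows held a CACGTG E-box, 122 to 127 bases before start 1 and 133 to 138 bases before start 2, and the first also held the D-box core TTAGATAA at 167 to 174 bases. The Hlf window held TGACGTCA at 2 to 9 bases before its start, and the Nfil3 window held AGGTCA on the opposite strand, read as TGACCT, at 7 to 12 bases. The Dbp window held none of these letter strings. Of 32851 start-site windows of the same length, 6.02% held CACGTG, 5.43% TTANNTAA, 14.0% AGGTCA and 1.55% TGACGTCA. A match is a string of letters and was not tested as a binding site.

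Dbp, the PAR bZIP gene with the steepest rhythm, swung between a minimum at 0 h and a maximum at 8 h in both genotypes. In the mm9 coordinates of the table it lies at chr7:52960458-52965525 (ENSMUSG00000059824). At 0 h, Dbp measured 1.87, 4.18, 2.52 and 2.34 CPM in the 4 KO mice, against 2.68, 2.45, 1.50 and 2.81 CPM in the 4 WT mice. At 4 h it had 73.7, 23.2, 67.8 and 76.8 CPM in KO, against 82.8, 11.6, 47.9 and 13.2 CPM in WT. At 4 h, 3 of the 4 KO mice were close together and the fourth was low, while the WT mice were spread over and beyond the KO range. At 8 h the values were 103, 35.1, 116 and 169 CPM in KO and 185, 89.3, 119 and 104 CPM in WT. At 12 h they were 39.2, 14.5, 13.5 and 57.9 CPM in KO, against 61.8, 45.4, 87.8 and 124 CPM in WT. At that time 3 of 4 KO mice lay below every WT mouse, and the highest KO mouse lay above the lowest WT mouse. At 16 h Dbp was at 12.7, 8.35 and 5.31 CPM in KO and at 17.0, 5.53, 15.8, 25.3 and 12.8 CPM in WT. At 20 h it was at 5.68, 6.24, 4.01 and 4.53 CPM in KO and at 5.26, 4.36, 3.79 and 11.9 CPM in WT. The ranges again overlapped at these late times, with 1 WT mouse at 20 h above all others.

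Dbp averaged 106 ± 55.2 CPM at 8 h and 2.73 ± 1.01 CPM at 0 h in KO (SD, n = 4), a 38.8-fold difference of means. In WT the same means were 124 ± 42.4 and 2.36 ± 0.593 CPM (SD, n = 4), a 52.7-fold difference. The falling order of the KO means was 8, 4, 12, 16, 20 and 0 h, and neighbours in it overlapped except 12 against 16 h. In WT the order was 8, 12, 4, 16, 20 and 0 h, and neighbours overlapped except 20 against 0 h. The order of 4 and 12 h thus differed between the genotypes, with means of 60.4 ± 25.1 at 4 h and 31.3 ± 21.4 CPM at 12 h in KO (SD, n = 4) and 38.9 ± 33.7 at 4 h and 79.8 ± 34.4 CPM at 12 h in WT (SD, n = 4).

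Tef, which is expressed with a flatter rhythm, also had its lowest mean at 0 h and its highest at 8 h in both genotypes (chr15:81632851-81657291, ENSMUSG00000022389). At 0 h, Tef measured 55.5, 40.6, 60.3 and 46.2 CPM in KO, against 77.5, 81.7, 64.0 and 43.5 CPM in WT. At 4 h it reached 162, 153, 203 and 207 CPM in KO, against 159, 103, 168 and 124 CPM in WT. At 0 h all KO mice lay below 3 of the 4 WT mice, and at 4 h the 2 highest KO mice lay above every WT mouse. At 8 h Tef was at 344, 237, 345 and 465 CPM in KO and at 444, 288, 356 and 352 CPM in WT. At 12 h it was at 326, 254, 208 and 351 CPM in KO and at 335, 352, 342 and 358 CPM in WT. The 4 WT mice at 12 h were within a narrow band (coefficient of variation 3.00%), and 3 of the 4 KO mice lay below it. At 16 h the values were 209, 209 and 151 CPM in KO, against 309, 171, 255, 217 and 224 CPM in WT. At 20 h they were 126, 121, 125 and 109 CPM in KO, against 131, 155, 131 and 119 CPM in WT. The genotype ranges overlapped at both late times. Tef means spanned 6.86-fold between 8 and 0 h in KO and 5.40-fold in WT. In KO the falling order of means was 8, 12, 16, 4, 20 and 0 h, and the last 3 were separate from each other. In WT the order was the same, with separate ranges between 12 and 16 h, 16 and 4 h, and 20 and 0 h.

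Hlf, the third activator, changed little over the day (chr11:90197849-90252231, ENSMUSG00000003949). At 0 h, Hlf measured 81.9, 51.7, 66.1 and 56.7 CPM in KO, against 73.1, 53.3, 47.8 and 60.9 CPM in WT. At 4 h it had 82.7, 77.8, 84.2 and 85.2 CPM in KO, against 80.2, 75.5, 92.3 and 67.2 CPM in WT. The 4 KO mice at 4 h were closely grouped, inside the WT range. At 8 h Hlf was at 100.3, 71.3, 104 and 121 CPM in KO and at 126, 85.4, 80.2 and 89.2 CPM in WT. At 12 h it was at 103, 92.7, 102 and 82.6 CPM in KO and at 102, 101, 125 and 106 CPM in WT. The highest KO means fell at 8 and 12 h and the highest WT means at 12 and 16 h, with overlap at each time. At 16 h the values were 98.1, 61.6 and 96.8 CPM in KO, against 112, 80.2, 115, 92.8 and 107 CPM in WT. At 20 h they were 63.9, 87.0, 77.0 and 82.0 CPM in KO, against 85.7, 70.3, 83.9 and 75.3 CPM in WT. The low KO value at 16 h came from 1 of the 3 unusual libraries. Hlf means spanned 1.55-fold between 8 and 0 h in KO and 1.85-fold between 12 and 0 h in WT, and in both genotypes each mean overlapped the next in order.

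Nfil3, the repressor, ran largely opposite to the activators (chr13:53062578-53076442, ENSMUSG00000056749). Its values were high from 16 to 0 h and low at 8 and 12 h, although Hlf in WT also had a high mean at 16 h. At 0 h, Nfil3 measured 68.7, 38.0, 63.4 and 60.9 CPM in KO, against 76.9, 31.9, 46.1 and 46.6 CPM in WT. At 4 h it had 28.6, 14.3, 17.2 and 13.5 CPM in KO, against 60.3, 45.7, 17.1 and 20.9 CPM in WT. All KO mice were already low at 4 h, while 2 of the 4 WT mice were still above every KO mouse. At 8 h Nfil3 was at 10.4, 26.6, 9.45 and 15.8 CPM in KO and at 9.98, 6.98, 7.82 and 12.3 CPM in WT. At 12 h it was at 4.67, 23.2, 23.7 and 10.1 CPM in KO and at 7.04, 10.0, 19.6 and 14.8 CPM in WT. The KO ranges were wider than the WT ranges at both times and overlapped them. At 16 h the values were 35.4, 73.4 and 30.8 CPM in KO, against 46.5, 26.2, 37.3, 73.4 and 46.9 CPM in WT. At 20 h they were 65.8, 32.2, 41.9 and 46.4 CPM in KO, against 56.0, 25.4, 50.6 and 70.7 CPM in WT. The highest KO mouse at 16 h was the same unusual library that was low for Hlf. Nfil3 means spanned 3.75-fold between 0 and 12 h in KO and 5.47-fold between 20 and 8 h in WT. In KO the mice of 16, 20 and 0 h stood above those of 4, 8 and 12 h without overlap. In WT every mean overlapped the next in order, and the order of means was 20, 0, 16, 4, 12 and 8 h.

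**Figure D1:**
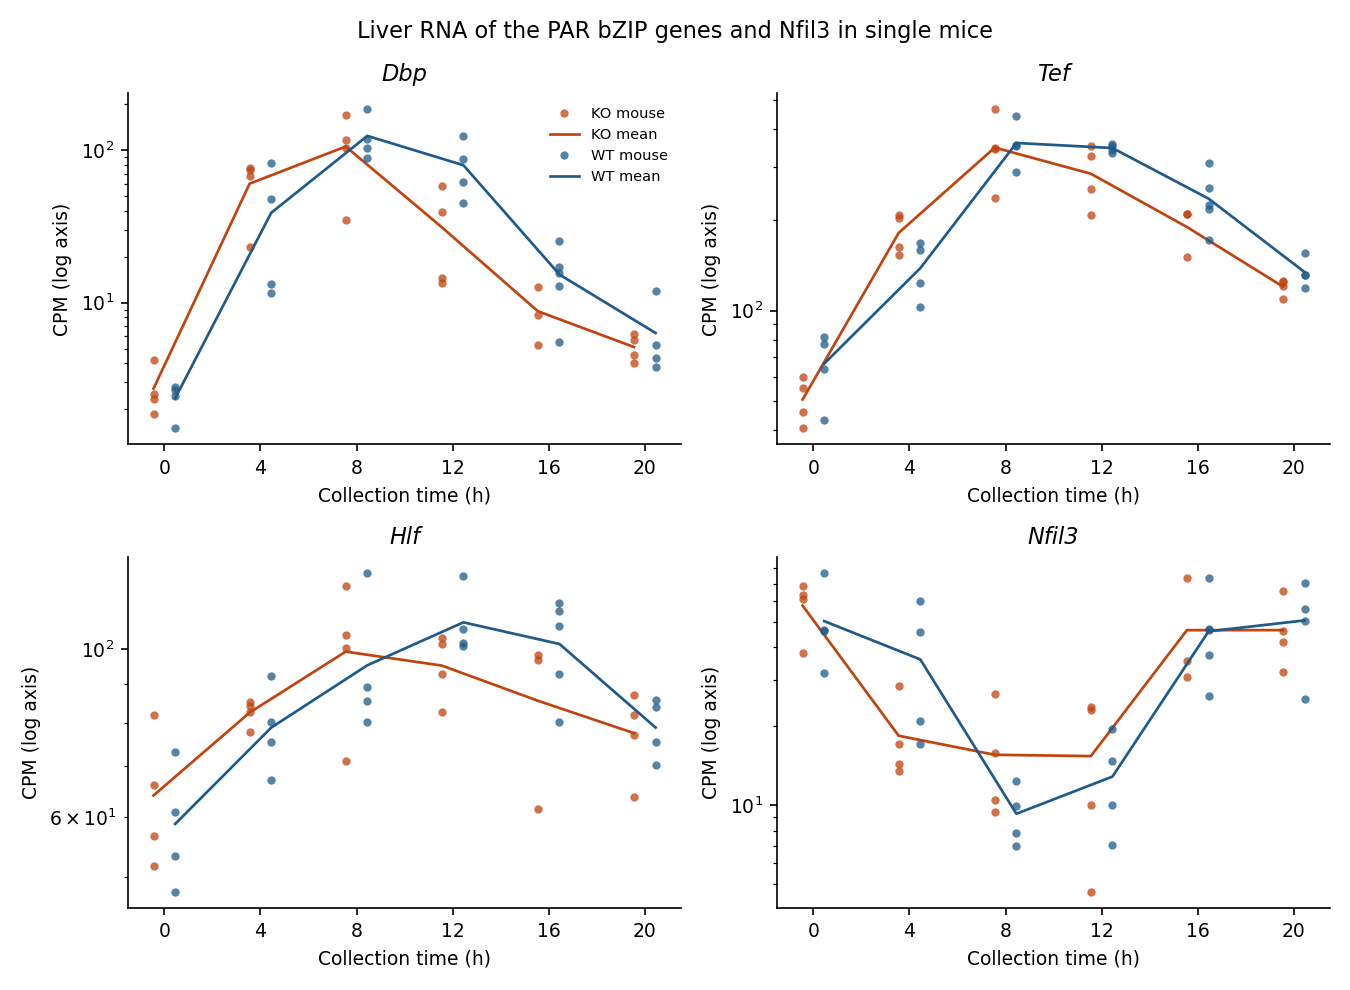
CPM (log axis) of Dbp, Tef, Hlf and Nfil3 against collection time in h, with 1 point per mouse, KO left of WT, and lines through the group means. Dbp means lie between 2.73 and 106 CPM in KO and between 2.36 and 124 CPM in WT. Nfil3 has its lowest means at 8 and 12 h, the times of the highest Tef means in both genotypes.

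All 4 members had a 24 h rhythm in both genotypes. The test was edgeR's quasi-likelihood F test of a cosine and a sine term with Benjamini-Hochberg adjustment over 13646 genes, of which it called 17% in KO, 16.3% in WT and 9.59% in both. The adjusted p-values in KO were 1.13e-07 for Dbp, 3.15e-08 for Tef, 0.0146 for Hlf and 0.000462 for Nfil3. In WT they were 1.17e-08 for Dbp, 5.39e-09 for Tef, 0.000151 for Hlf and 0.000113 for Nfil3. These calls held without any 1 of the 48 libraries, where the highest adjusted p was 0.0404, for Hlf in KO. A test of any difference among the 6 times, which assumes no shape, called 3 members in KO and all 4 in WT, with backgrounds of 9.73% in KO and 8.55% in WT. Hlf in KO had an adjusted p of 0.0758 in it. Hlf in KO did not pass this test in 45 of 48 refits without 1 library, with adjusted p-values up to 0.195. The 3 refits in which it passed were without KO replicate 1 at 0 h (0.0441), KO replicate 3 at 16 h (0.0344) or KO replicate 2 at 8 h (0.0370). Of 5 other settings, 2 changed the call, DESeq2 (0.0263) and the fit without both 16 h groups (0.0184). The highest adjusted p among these 5 was 0.122.

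The members differed widely in the size of their rhythm. Amplitude, the distance from mean to peak of a cosine fitted to log2 CPM, was 2.38 ± 0.28 in KO and 2.69 ± 0.28 in WT for Dbp (SE). It was 1.16 ± 0.12 in KO and 1.18 ± 0.12 in WT for Tef, 0.27 ± 0.07 in KO and 0.40 ± 0.07 in WT for Hlf, and 1.14 ± 0.20 in KO and 1.28 ± 0.20 in WT for Nfil3. Among rhythmic genes averaging 1 CPM or more, Dbp ranked 1 of 2186 in KO and 2 of 2083 in WT by this amplitude. Tef ranked 72 in KO and 78 in WT, Nfil3 79 in KO and 59 in WT, and Hlf 1931 in KO and 1133 in WT. The KO minus WT difference of amplitude was -0.31 ± 0.40 for Dbp, -0.02 ± 0.17 for Tef, -0.13 ± 0.09 for Hlf and -0.15 ± 0.28 for Nfil3. None of these was as large as 2 of its standard errors. In 1 of 6 other settings the KO amplitude of Dbp moved by its standard error or more, as did that of Tef in 1 of 6.

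Dbp had the earliest fitted peak of the activators in both genotypes. Nfil3 peaked near the opposite side of the 24 h cycle, least so against Hlf in WT. Fitted peak times were 8.23 ± 0.46 h in KO and 9.63 ± 0.38 h in WT for Dbp (SE, in h after the first collection). For Tef they were 10.6 ± 0.42 h in KO and 11.4 ± 0.38 h in WT. For Hlf they were 10.7 ± 0.98 h in KO and 12.3 ± 0.61 h in WT. Tef therefore followed Dbp by 2.38 ± 0.38 h in KO and by 1.75 ± 0.30 h in WT (SE), and Hlf followed Dbp by 2.48 ± 0.92 h in KO and by 2.68 ± 0.61 h in WT. Tef and Hlf did not separate, with a gap of 0.104 ± 0.87 h in KO and 0.931 ± 0.56 h in WT. Nfil3 peaked at 20.9 ± 0.70 h in KO and at 21.2 ± 0.57 h in WT. It followed Tef by 10.3 ± 0.73 h in KO and by 9.85 ± 0.62 h in WT. It followed Hlf by 10.2 ± 1.19 h in KO and by 8.92 ± 0.83 h in WT. With samples 4 h apart over 20 h, the shape between times is set by the cosine. Beside refits without 1 library, 7 other settings were run for peak times. Of these, 2 moved the peaks of Dbp in both genotypes, Tef in KO and Nfil3 in WT by their standard error or more. The peaks of Tef in WT and of Hlf in both genotypes moved that far in 1 setting. Added 12 h terms were among these settings. With added 12 h terms the peaks moved to 6.89 h in KO and 8.46 h in WT for Dbp, to 7.98 h in KO and 9.42 h in WT for Tef, to 8.43 h in KO and 14.1 h in WT for Hlf, and to 18.1 h in WT for Nfil3.

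**Figure D2:**
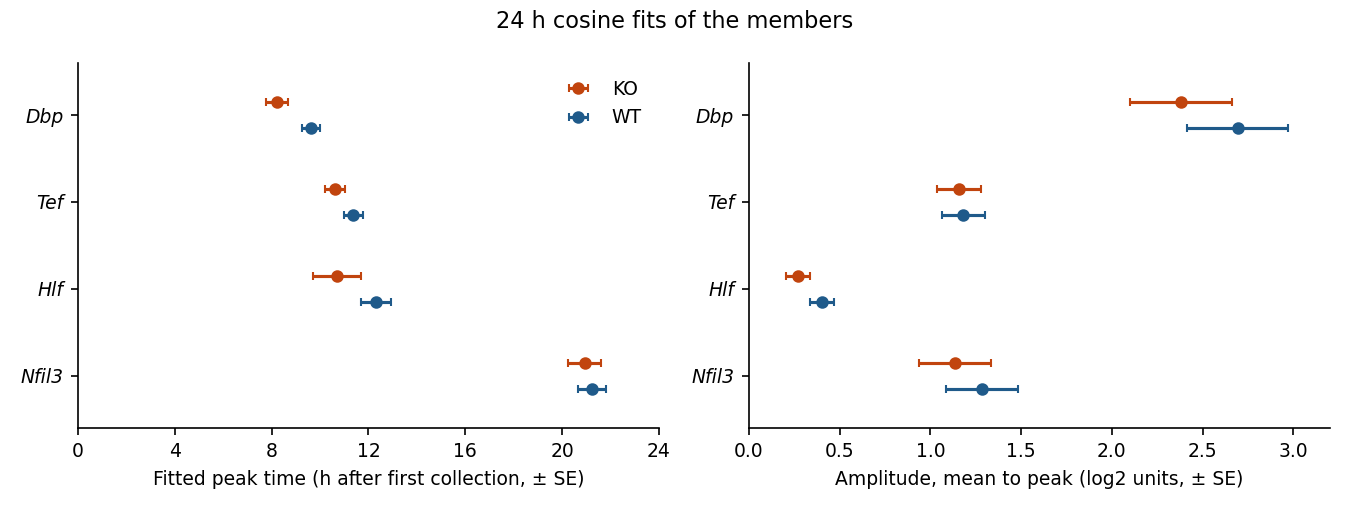
Fitted peak time in h after the first collection (left) and amplitude in log2 units (right) of the 4 members, KO above WT, with standard errors. The activators peak between 8.23 and 12.3 h and Nfil3 at 20.9 h in KO and 21.2 h in WT, and Dbp has the largest amplitude of the 4 in both genotypes.

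No member differed between KO and WT past the threshold in any test of genotype. Over all times the mean log2 change, KO minus WT, was -0.31 ± 0.22 for Dbp (adjusted p = 0.455), -0.14 ± 0.082 for Tef (0.390), -0.035 ± 0.069 for Hlf (0.799) and 0.021 ± 0.17 for Nfil3 (0.959) by edgeR's quasi-likelihood test. The count was 0 of 4 members, against a background of 1.4% of genes called. At an unadjusted p under 0.05 it was also 0 of 4, against 2336 of 13646 genes. With DESeq2 it was again 0 of 4, and its count over all genes is given with the other settings below. At such shares a count of 0 of 4 does not set the members apart from other genes. The signs for Hlf and Nfil3 were not stable: without the 3 unusual libraries the changes were 0.0026 for Hlf and -0.036 for Nfil3. The median change over all genes tested was -0.0047. For the genotype by time interaction the unadjusted p was 0.123 for Dbp, 0.0962 for Tef, 0.569 for Hlf and 0.146 for Nfil3, and the adjusted p was 0.953 for each, with 0.00733% of genes called. For a difference of the 24 h rhythm the unadjusted p was 0.0737 for Dbp, 0.309 for Tef, 0.183 for Hlf and 0.598 for Nfil3, with an adjusted p of 1.00 for each and a background of 0.00733%. Both tests called 0 of 4 members, with 0 at an unadjusted p under 0.05 and 0 by DESeq2.

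At single times the 2 largest departures were a lower Dbp at 12 h and a lower Nfil3 at 4 h in KO, and neither passed. Dbp at 12 h had a log2 change of -1.35 ± 0.51, with 31.3 ± 21.4 CPM in KO and 79.8 ± 34.4 CPM in WT (SD, n = 4 each, unadjusted p = 0.0116 and adjusted p = 0.908 by edgeR). Its adjusted p lay between 0.547 and 1.00 without any 1 library. Nfil3 at 4 h had a log2 change of -0.97 ± 0.43, with 18.4 ± 6.98 CPM in KO and 36.0 ± 20.6 CPM in WT (SD, n = 4 each, unadjusted p = 0.0290 and adjusted p = 0.178 by edgeR). Its log2 change was -0.60 without WT replicate 1 at 4 h, and -1.26 with an adjusted p of 0.0466 without KO replicate 1 at 4 h, and the adjusted p lay between 0.0466 and 0.507 over the 48 refits without 1 library. In that same refit 3354 of all genes tested were called at 4 h, against 5 with all libraries, so adjusted p-values at 4 h moved strongly with this library. Next in size by their standard errors were Tef at 0 h with -0.40 ± 0.20 (adjusted p = 0.926) and Tef at 4 h with 0.39 ± 0.20 (adjusted p = 0.226). Nfil3 at 8 h had a change of 0.74 ± 0.43, Dbp at 16 h one of -0.80 ± 0.55 and Dbp at 4 h one of 0.63 ± 0.50, none past the threshold. The change of Nfil3 at 8 h was 0.34 without KO replicate 2 at 8 h. That of Dbp at 16 h was -0.48 with a replicate block. That of Dbp at 4 h was 1.32 without WT replicate 1, 0.33 without WT replicate 2 and 0.35 without WT replicate 4 at 4 h.

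Of 24 comparisons of a member at a time, 0 passed, 2 had an unadjusted p under 0.05 and 0 passed with DESeq2. Over all 13646 genes 3175 had an unadjusted p under 0.05 at 4 h and 600 at 12 h, the times of those 2. The background of genes called was 0.0147% at 0 h, 0.0366% at 4 h, 0% at 8 h, 0% at 12 h, 0.022% at 16 h and 0% at 20 h. With a replicate block 2 genes in place of 5 were called at 4 h, none of them a member. The KO and WT ranges overlapped in all 24 comparisons, while the share of genes whose ranges did not overlap was 3.66% at 0 h, 7.79% at 4 h, 1.67% at 8 h, 3.25% at 12 h, 1.17% at 16 h and 1.1% at 20 h.

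**Figure D3:**
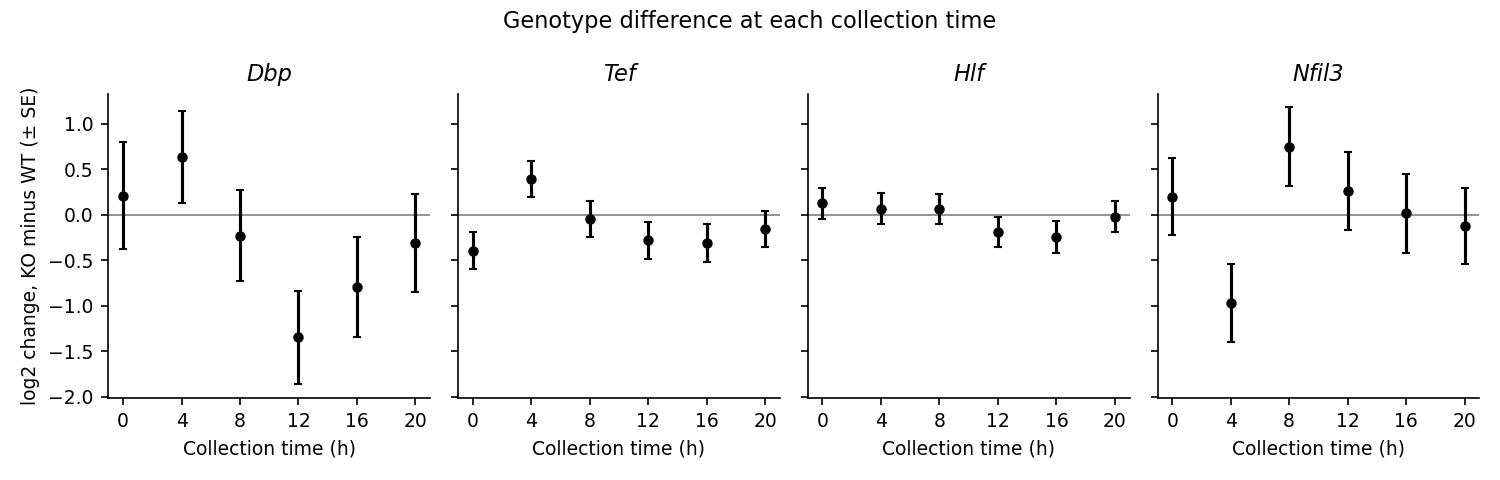
log2 change, KO minus WT, of each member at each collection time with its standard error, from the 12-group edgeR model. Dbp at 12 h (-1.35) and Nfil3 at 4 h (-0.97) lie farthest below 0, and no point passed the adjusted threshold.

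Steps between neighbouring times located the rise and fall of each member. Of 24 steps in KO 5 passed and 11 had an unadjusted p under 0.05, by edgeR with adjustment over all genes within each step. Of 24 steps in WT 7 passed and 15 had an unadjusted p under 0.05. Over all 13646 genes, 338 (8 to 12 h) to 3816 (0 to 4 h) per step had an unadjusted p under 0.05 in KO. In WT it was 870 (0 to 4 h) to 2226 (4 to 8 h) genes per step. The rise of Dbp between 0 and 4 h had a log2 change of 4.46 ± 0.60 in KO (adjusted p = 1.65e-05) and 4.04 ± 0.59 in WT (adjusted p = 0.000407). Tef rose in the same step by 1.84 ± 0.21 in KO (2.65e-07) and by 1.05 ± 0.20 in WT (0.0230). Nfil3 fell by 1.65 ± 0.43 on the log2 scale between 0 and 4 h in KO (0.0316), while in WT the step was -0.49 ± 0.42 (1.00). The share of genes called between 0 and 4 h was 5.55% in KO and 0.0586% in WT. The KO count of 758 over all genes was 17 without KO replicate 3 at 4 h and 3989 without KO replicate 1 at 4 h, and whether the steps differed between genotypes was not tested one by one. The Tef step in WT had an adjusted p of 0.0946 without the 3 unusual libraries, and of 0.108 without WT replicate 3 at 0 h, 0.133 without WT replicate 4 at 0 h, 0.131 without WT replicate 1 at 4 h and 0.189 without WT replicate 3 at 4 h. The Nfil3 step in KO did not pass without replicate 1, 3 or 4 of KO at 0 h or without replicate 2, 3 or 4 of KO at 4 h, with adjusted p-values up to 0.138.

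Between 4 and 8 h Tef rose further, by 0.94 ± 0.20 in KO (adjusted p = 0.0415) and by 1.38 ± 0.20 in WT (6.98e-05). In this step Nfil3 had a log2 change of -0.24 ± 0.43 in KO (0.921) and fell by 1.95 ± 0.44 on the log2 scale in WT (0.0175). The fall of Nfil3 was thus called between 0 and 4 h in KO and between 4 and 8 h in WT. The share of genes called was 0.0733% in KO and 0.66% in WT. The Tef step in KO passed in 24 of 48 refits without 1 library, with adjusted p-values between 0.0121 and 0.252. The Nfil3 step in WT passed in 43 of 48 and had its highest adjusted p of 0.134 without WT replicate 1 at 4 h, and it also did not pass without WT replicate 2 at 4 h or without WT replicate 1, 2 or 3 at 8 h. Dbp between 4 and 8 h had a step of 0.81 ± 0.50 in KO and 1.68 ± 0.51 in WT, neither called, and the WT step was 2.36 with an adjusted p of 0.0364 without WT replicate 1 at 4 h.

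The turn came later in the course. No member was called between 8 and 12 h in KO, where 0% of genes passed, or in WT, where 0.0147% passed, although Dbp had a step of -1.76 ± 0.52 in KO (unadjusted p = 0.00149). Between 12 and 16 h the KO steps were -1.83 ± 0.59 for Dbp (adjusted p = 0.248) and 1.60 ± 0.46 for Nfil3 (0.152), with 0.176% of genes called. In WT the same steps passed, and Dbp fell by 2.38 ± 0.49 on the log2 scale (0.0199) while Nfil3 rose by 1.84 ± 0.42 (0.0429), with 0.22% of genes called. The Dbp fall in WT had an adjusted p of 0.0505 without WT replicate 3 at 12 h, 0.101 without WT replicate 4 at 12 h and 0.0700 without WT replicate 5 at 16 h, the library high in lymphocyte markers, and whether those cells bear on the result was not tested. The Nfil3 rise in WT passed in 32 of 48 refits without 1 library, with adjusted p-values up to 0.205. From 20 h round to 0 h Tef fell by 1.25 ± 0.20 on the log2 scale in KO (0.00243) and by 1.01 ± 0.20 in WT (0.0416), with 0.0586% of genes called in KO and 0.0293% in WT. The WT fall of Tef passed in 26 of 48 refits and had an adjusted p of 0.174 without the 3 unusual libraries. Between 16 and 20 h Tef had a step of -0.81 ± 0.19 in WT (adjusted p = 0.0780), which passed (0.0333) without WT replicate 2 at 16 h, and the share of genes called was 0% in KO and 0.066% in WT. No step of Hlf passed in either genotype.

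Each member's fitted peak was earlier in KO than in WT, as were most rhythmic genes of this liver data set. The KO minus WT difference was -1.40 ± 0.60 h for Dbp, -0.78 ± 0.56 h for Tef, -1.61 ± 1.15 h for Hlf and -0.31 ± 0.90 h for Nfil3 (SE). Over the 1308 genes with a rhythm called in both genotypes the median difference was -0.731 h, the quartiles were -1.46 and 0.0765 h, and 72.9% were earlier in KO. A still earlier difference was found in 26.8% of these genes for Dbp, 48.6% for Tef, 21.6% for Hlf and 63.7% for Nfil3, so the members lay within the body of the distribution. The difference for Nfil3 changed sign, with 0.104 h without the 3 unusual libraries and 3.07 h with added 12 h terms, and that for Hlf was -5.69 h and that for Tef -1.44 h with those terms. Among refits without 1 library, the Hlf difference was -0.962 h without KO replicate 2 at 16 h. The Nfil3 difference ran from -0.784 h without KO replicate 1 at 12 h to 0.131 h without KO replicate 2 at 16 h, and was also above 0 without WT replicate 1 at 4 h. Dbp stayed between -1.64 and -1.19 h without any 1 library and was -1.57 h with 12 h terms.

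**Figure D4:**
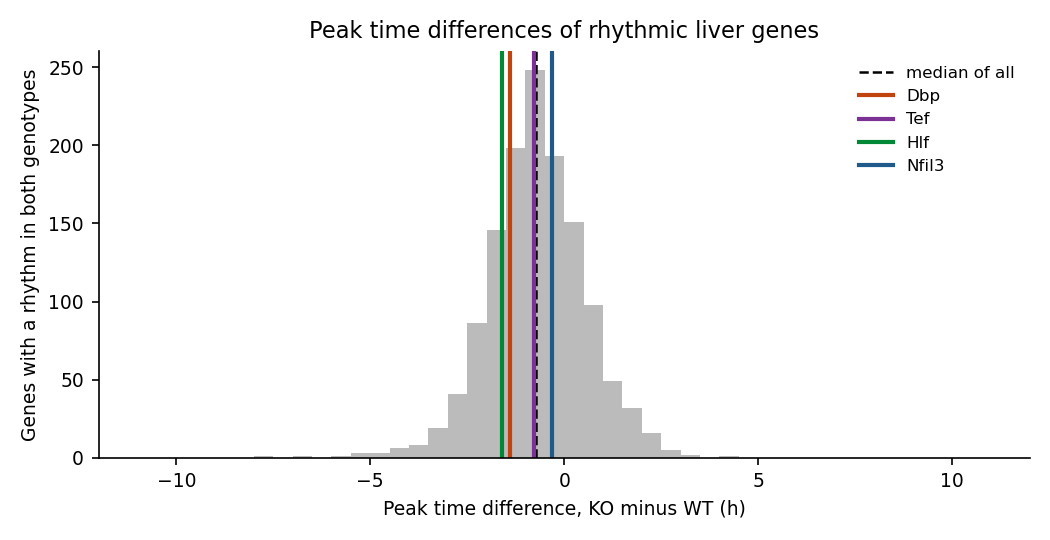
Number of genes by peak time difference, KO minus WT, in h, for the 1308 genes with a rhythm called in both genotypes, with lines for the members and a dashed line for the median. The median is -0.731 h, and the members run from -1.61 h for Hlf to -0.31 h for Nfil3.

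Mice that stood high for Dbp within their own group also tended to stand high for Tef. After the mean of each genotype and time was removed from log2 CPM, Dbp and Tef had a Pearson r of 0.572 and a Spearman rho of 0.535 over 48 mice. The permutation p within groups was 0.00072 for r and 0.00149 for rho. After adjustment over 6 pairs of members it was 0.00432 for r and 0.00894 for rho. Each group was shuffled on its own, so any likeness of KO and WT mice of the same replicate number was not taken into account. Without the 2 mice farthest from the median for Dbp, r was 0.518. In KO mice alone r was 0.712 (adjusted permutation p = 0.0405, rho 0.623 with 0.1002) and in WT mice alone it was 0.453 (adjusted permutation p = 0.126, rho 0.405 with 0.117).

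The other activator pairs were weaker. Dbp and Hlf had an r of 0.322 and a rho of 0.308, and Tef and Hlf an r of 0.391 and a rho of 0.344, with an adjusted permutation p of 0.0713 for each r and 0.105 for each rho. Without the 3 unusual libraries r was 0.392 for Dbp with Hlf and 0.458 for Tef with Hlf, each with an adjusted permutation p of 0.0294. Single libraries also moved these calls: the r of Dbp with Hlf passed without KO replicate 2 at 0 h (0.0474), KO replicate 4 at 12 h (0.0280) or KO replicate 3 at 16 h (0.0360). The r of Tef with Hlf passed without KO replicate 4 at 12 h (0.0280), KO replicate 2 at 16 h (0.0252), KO replicate 3 at 16 h (0.0258) or WT replicate 4 at 0 h (0.0399). Without the 2 farthest mice the r values were 0.257 for Dbp with Hlf and 0.365 for Tef with Hlf. Nfil3, largely opposite to the activators across the day, had no relation called with any of them among mice of a group. Its r was 0.0069 with Dbp, -0.159 with Tef and -0.0136 with Hlf. The adjusted permutation p-values were 0.973, 0.579 and 0.973 in this order. Dbp and Nfil3 had an r of -0.474 in KO mice alone and 0.455 in WT mice alone, with adjusted permutation p-values of 0.302 and 0.126 in this order, and the difference was not tested.

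**Figure D5:**
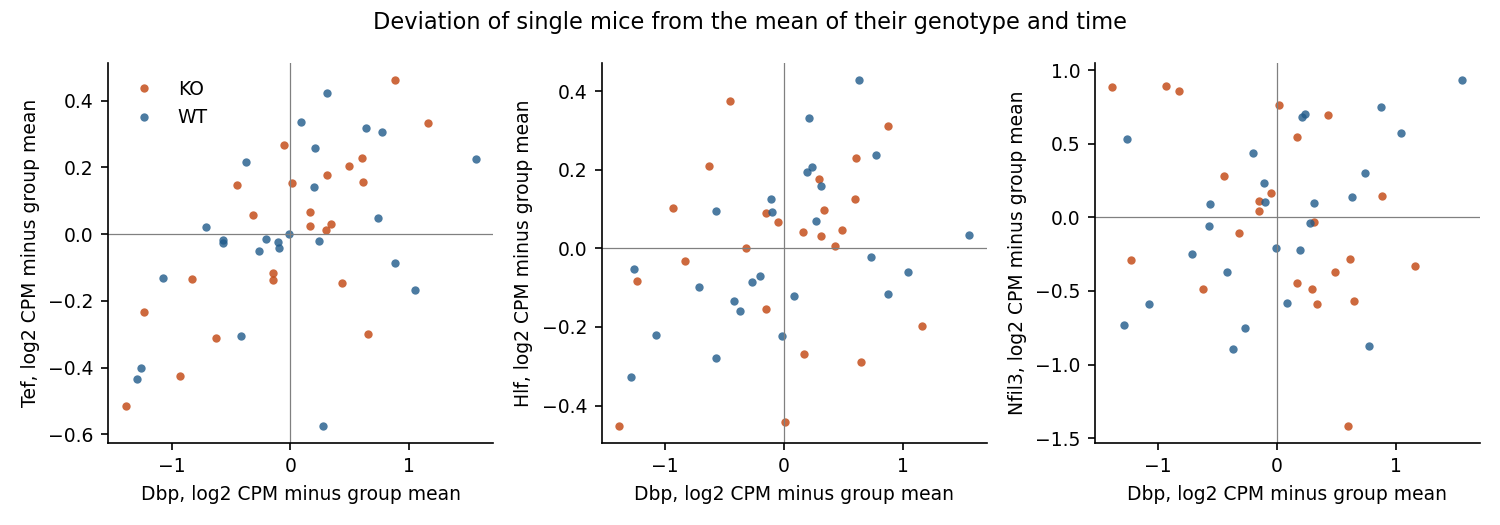
Log2 CPM of Tef, Hlf and Nfil3 against that of Dbp in 48 mice, each minus the mean of its genotype and time, with KO and WT points in different colours. Pearson r is 0.572 for Dbp with Tef, 0.322 for Dbp with Hlf and 0.0069 for Dbp with Nfil3.

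The genes whose log2 CPM followed the members most closely over all 48 libraries included clock genes and other members, given here as a description among 11985 genes averaging 1 CPM or more. Dbp was most like the clock gene Per3 (r = 0.851), then Tef (0.842), the REV-ERB beta gene Nr1d2 (0.820), Mrps9 (0.801), which encodes a mitochondrial ribosomal protein, and Stbd1 (0.786). It was most opposed to Tars (r = -0.880), the threonyl-tRNA synthetase gene, and Clpx (-0.877), a mitochondrial protease subunit gene. Tef followed Per3 more closely than any other gene (0.972), then Cyp2a5 (0.875), Nr1d2 (0.858), Stbd1 (0.852) and N4bp2l1 (0.845). Hlf was most like Rbm47 (0.799), which encodes an RNA-binding protein, Cyp2a5 (0.787), Tef (0.786), Pik3r1 (0.784) and Homer2 (0.775). Nfil3 was most like Rbpms (0.912), Nedd4l (0.903), Lrfn3 (0.900), Abtb2 (0.890) and Sqstm1 (0.885), and most opposed to the cold-inducible RNA-binding gene Rbm3 (-0.841), Narf (-0.840) and Rsrc1 (-0.840). All these values share the same genotypes, times and libraries.

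Genes reported as targets of the PAR bZIP factors or NFIL3 cycled in part, and none was called for genotype. All 12 listed genes were tested; the tests of the mean genotype difference, the interaction and the rhythm difference each called 0, against 1.4%, 0.00733% and 0.00733% of all genes in the same order, and their median log2 change was 0.05 against -0.0047 over all genes. A rhythm was called in 7 of 12 in KO, 7 of 12 in WT and 5 of 12 in both, against 17%, 16.3% and 9.59% of all genes in the same order. The 5 with a rhythm in both, named after their values were seen, were Por, the electron donor of cytochromes P450, the cytochrome P450 genes Cyp2a4, Cyp2a5 and Cyp2b10, and Nr1i3, which encodes the receptor CAR. Cyp2a5 peaked at 11.8 ± 0.44 h in KO and 12.6 ± 0.41 h in WT, later than Tef in both genotypes. Cyp2b10 peaked at 18.6 ± 0.56 h in KO and 20.2 ± 0.48 h in WT. Of the 5, 4 had an earlier peak in KO, with a median difference of -0.472 h.

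The 4 target genes with the lowest interaction p were Alas1, Abcb1a, Fgf21 and Cyp7a1, all with an adjusted p of 0.953. Alas1, the first enzyme of heme synthesis, had an amplitude of 0.42 in KO and 0.87 in WT, with no rhythm called in KO (adjusted p = 0.285) and one called in WT (0.000917), and an unadjusted interaction p of 0.0411. Abcb1a, a drug efflux pump gene, had an amplitude of 1.08 in KO and 0.54 in WT, with a rhythm called in KO (6.58e-05) and not in WT (0.0553). Cyp7a1, which encodes the enzyme that starts bile acid synthesis, had a mean log2 change of 0.56 ± 0.28 (adjusted p = 0.309), and Fgf21, a hepatic hormone gene, one of -0.17 ± 0.28 (0.753). Since the rhythm difference was called for 0 of these genes, a call in 1 genotype alone does not show that they differed.

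Clock genes known to act upstream of or beside the members were also counted. Of 15 tested, 1 was higher in KO (Npas2, the paralog of Clock) and 2 were lower (Bhlhe40 and Ciart, 2 repressors of BMAL1-driven transcription, named after their values were seen) for the mean genotype difference, which called 1.4% of all genes. Npas2 had a log2 change of 1.67 ± 0.27 (adjusted p = 0.000373) and was the 1 gene of 13646 tested past the interaction test (0.0301). That test called 0 genes with a replicate block or without the 3 unusual libraries. Bhlhe40 had a log2 change of -0.65 ± 0.16 (0.0238) and Ciart one of -1.28 ± 0.28 (0.0115). A rhythm was called in 11 of 15 in KO, 10 in WT and 10 in both, against 17%, 16.3% and 9.59% of all genes in the same order. All 10 had an earlier fitted peak in KO, with a median difference of -0.967 h, while 72.9% of the rhythmic genes were earlier with a median of -0.731 h. Per3, the gene most like Dbp and Tef, peaked at 10.3 ± 0.32 h in KO and 11.3 ± 0.32 h in WT, and Arntl at 20.9 ± 0.45 h in KO and 22.2 ± 0.32 h in WT. In the C/EBP family, bZIP factors outside the PAR group, 0 of 7 tested passed for genotype, interaction or rhythm difference. A rhythm was called for 1 in KO, 2 in WT and 1 in both, near the shares of 17%, 16.3% and 9.59% of all genes. Cebpd was called in both genotypes, with amplitudes of 0.54 in KO and 0.74 in WT, and Cebpb in WT, both named after their values were seen. Its 4 genes with the lowest interaction p had fitted amplitudes of 0.20 in KO and 0.18 in WT for Cebpa, 0.31 in KO and 0.86 in WT for Cebpb, 0.19 in KO and 0.27 in WT for Cebpg, and 0.30 in each genotype for Cebpe.

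Dbp overlaps the neighbouring gene Sphk2 by 689 bases and Tef overlaps Gm17597 by 193 bases in the table's mm9 positions. The name of the deposited counts holds the word sense, but the sources used here do not state how counting used strand. Sphk2 had 243 to 1770 counts per library, an r of -0.267 with Dbp and no rhythm called in KO (adjusted p = 0.117) or WT (0.415). Gm17597 had a mean of 5 counts and at most 29, while Tef had at least 534; its rhythm was called in KO (0.00271) and WT (0.00265), with an r of 0.723 with Tef.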

How the data were processed

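The authors deposited a table of whole-number read counts per gene for 48 liver libraries. Per the labels' protocols, libraries were made from poly-A RNA with random hexamer priming, and 2 shared each HiSeq 2000 lane. CASAVA, STAR 2.4.1d and build mm9 are named per the submitters' processing notes. The counting rule and its annotation are not given in the sources here. The name of the deposited counts holds the word sense, with no statement of how strand was used. Albumin, marked by the table as high, has values near whole multiples of 1311.61 and was left out. Library totals were nearly equal as deposited, which does not show equal sequencing depth.

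Counts were fitted with edgeR 4.0.16 in R 4.3.3 (quasi-likelihood F test, TMM scaling, minimum count 10, minimum total count 15, 12 group means). A second model had a 24 h cosine and sine per genotype. Benjamini-Hochberg adjustment ran over 13646 genes, with a threshold of 0.05. Standard errors of log2 changes are the change over the square root of F. Amplitudes and peak times came from least squares on log2 CPM with a prior count of 2, with delta-method standard errors. Covariation used 100000 permutations within groups, two-sided. The edgeR and cosine fits across all genes were tested on simulated data.

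The members and lists were chosen with earlier results of these data known. Named genes are the members, the 5 genes most like each, the 3 most opposed to Dbp and Nfil3, and up to 4 per list by lowest interaction p, of which 2 genes are not reported here. Separate mice are replicates per the labels' protocols. The main tests did not pair mice, and the replicate block paired KO and WT mice by the labels' replicate numbers at every time. At 4 h all 4 such pairs had deviations that correlated over 0.1 (0.214 to 0.521 over 2000 genes). At no other time did all pairs do so. Over all times 13 of 23 pairs did, with r from -0.416 to 0.610. Alternatives were DESeq2 1.42.0, RLE scaling, no filter, other shapes, a replicate block and left-out libraries.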

Additional observations from a re-analysis of the deposited data

Results flagged for a closer look

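Over 44 sets of CPM values, 1 for each member in each group of 4 or 5 mice, 1 held a mouse far from the others of its group. Dbp in KO replicate 2 at 4 h was at 23.2 CPM, while the other 3 KO mice lay between 67.8 and 76.8 CPM, and the gap took 0.833 of the group's range against a critical value of 0.829. Chance alone gives such a value in about 1 of 20 groups. The same mouse had 153 CPM of Tef, the lowest of its group, 77.8 CPM of Hlf, also the lowest, and 14.3 CPM of Nfil3. WT replicate 2 at 4 h was likewise the lowest of its group for Dbp (11.6 CPM) and Tef (103 CPM), but not for Hlf (75.5 CPM).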

How the results depend on the processing

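Of 8084 values recomputed under alternatives, 7597 were counted as kept. For tests this meant the same side of the threshold and, where a test has a direction, the same direction. Counts had to stay within 1.5 times. Amplitudes and peak times, with their differences, had to move by less than their standard error, whether or not the sign changed. The rhythm calls of Dbp, Tef, Hlf and Nfil3 in both genotypes were kept under every alternative run for them, which did not include the replicate block. Totals of 19 counts at the least for Dbp, few mice per group and 6 times limit the precision. Steps and covariation without single libraries were added after seeing the data. The cause of the changes below was not tested.

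Over all genes, the 191 called for the mean genotype difference became 356 with DESeq2, 122 with no filter, 127 with a replicate block and 303 without the 3 unusual libraries. At 0 h the 2 called became 11 with DESeq2, 10 with no filter, 5 with RLE scaling, 8 without the unusual libraries, 1 without both 16 h groups, and 0 with only that time or with a replicate block. At 4 h the 5 called became 192 with DESeq2, 2 with no filter, 2 with a replicate block, 0 with only that time, 8 without the unusual libraries and 543 without both 16 h groups. At 8 h 0 became 2 with DESeq2. At 12 h 0 became 3 with DESeq2, 1 with no filter and 1 without both 16 h groups. At 16 h 3 became 17 with DESeq2 and 0 with no filter, only that time, a replicate block or without the unusual libraries. The interaction count of 1 became 11 with DESeq2 and 0 with a replicate block or without the unusual libraries. The rhythm difference count of 1 became 5 with DESeq2 and 0 with 12 h terms or a replicate block. The time effect count became 2262 in KO and 1870 in WT with DESeq2, and 2281 in KO without both 16 h groups, against 1328 in KO and 1167 in WT. Without the unusual libraries the steps had 21 in place of 10 for 4 to 8 h in KO, 1 in place of 24 for 12 to 16 h in KO, 3 in place of 8 for 0 to 4 h in WT and 2 in place of 4 for 20 to 0 h in WT. The replicate block changed no call of a member in the tests of genotype difference, interaction and rhythm difference. The time and rhythm tests within a genotype were not run with it.

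Among the members, without the unusual libraries the sign turned for Dbp at 0 h (-0.26), Nfil3 at 16 h (-0.45), Nfil3 over all times (-0.036), Hlf over all times (0.0026, and 0.0097 without both 16 h groups), the Hlf step from 12 to 16 h in KO (0.033) and the Nfil3 step from 20 to 0 h in WT (0.047). Covariation of Hlf and Nfil3 turned to 0.0451 without them and to 0.349 in WT alone, that of Dbp and Nfil3 to -0.474 in KO alone, that of Dbp and Tef was 0.453 in WT alone and no longer called, and without them Dbp and Hlf (0.392) and Tef and Hlf (0.458) were called.

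Without single libraries, counts over all genes ranged over 99 to 484 for the mean genotype difference, 0 to 9 at 0 h, 0 to 3354 at 4 h, 0 to 1 at 8 h, 0 to 2 at 12 h, 0 to 25 at 16 h, 0 to 3 for the interaction, 1 to 2 for the rhythm difference, 1628 to 3691 for the rhythm in KO and 810 to 2616 for the time effect in KO. KO steps ranged over 17 to 3989 (0 to 4 h), 0 to 46 (4 to 8 h), 0 to 2 (8 to 12 h), 0 to 150 (12 to 16 h), 0 to 34 (16 to 20 h) and 3 to 17 (20 to 0 h). WT steps ranged over 1 to 9, 32 to 126, 0 to 3, 8 to 61, 1 to 32 and 2 to 8 in the same order. Genotype differences that changed sign ranged over -0.073 to 0.35 for Dbp at 0 h, -0.55 to 0.044 at 8 h and -0.49 to 0.18 at 20 h; -0.22 to 0.082 for Tef at 8 h; -0.019 to 0.25 for Hlf at 0 h, -0.0031 to 0.15 at 4 h, -0.050 to 0.22 at 8 h and -0.085 to 0.057 at 20 h; and -0.029 to 0.56 for Nfil3 at 12 h, -0.48 to 0.25 at 16 h, -0.34 to 0.061 at 20 h and -0.066 to 0.082 over all times. Steps that changed sign ranged over -0.17 to 0.048 (8 to 12 h) and -0.28 to 0.038 (12 to 16 h) for Hlf in KO, -0.15 to 0.061 (8 to 12 h) for Tef in WT, -0.65 to 0.024 (4 to 8 h), -0.30 to 0.39 (8 to 12 h) and -0.21 to 0.47 (16 to 20 h) for Nfil3 in KO, and -0.068 to 0.37 (16 to 20 h) and -0.29 to 0.20 (20 to 0 h) for Nfil3 in WT. Covariation ranged over 0.222 to 0.390 for Dbp and Hlf, -0.114 to 0.109 for Dbp and Nfil3, 0.298 to 0.475 for Tef and Hlf and -0.0748 to 0.0976 for Hlf and Nfil3.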
